A study of Rattus norvegicus with 9 samples.

Results

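The genes described here are the glucocorticoid receptor Nr3c1, 2 enzymes that set the amount of active hormone inside a cell (Hsd11b1 and Hsd11b2) and 7 genes whose transcription the receptor is known to raise (Fkbp5, Tsc22d3, Per1, Klf9, Zbtb16, Sgk1 and Dusp1). They are a list of gene names, and no measured value enters the rule that sets it. The list was, however, chosen with earlier results of these data known. All 10 were found among the 17465 genes of the deposited table by NCBI Gene ID, and all 10 were among the 12966 genes tested after genes with low counts were set aside. Transcript levels came from sequencing of total RNA of whole fetal lungs of Sprague-Dawley rats after ribosomal RNA was depleted. The 3 groups, of 3 libraries each, were control lungs without treatment, hypoplastic lungs without treatment and hypoplastic lungs given AFSC-EV, which are extracellular vesicles of amniotic fluid stem cells. Both hypoplastic groups are labelled with hypoplasia, an underdevelopment of the lung that the series title ascribes to oligohydramnios, a lack of amniotic fluid. Its degree in each group was not measured here. The labels do not give the fetal age, the way the fluid was lost, the vesicle dose, its route and timing, or the litters.

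Glucocorticoid hormones (corticosterone in rats) enter cells and bind the receptor, which is held in the cytoplasm by HSP90 and its partner proteins and then moves to the nucleus, where it binds DNA. In the fetal lung the late rise of these hormones is known to thin the mesenchyme and to advance surfactant production and fluid clearance. HSD11B1 regenerates active hormone from an inactive form, and HSD11B2 inactivates it.

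Library totals ran from 56922779 to 88243188 estimated counts. Levels are given in CPM, counts per 1000000 of the library total scaled by TMM factors, and transcripts of different length are not compared with each other on this scale. The lung epithelial genes Nkx2-1, Sftpc, Sftpb, Ager, Cldn18 and Epcam, with Sftpb the highest, summed to 2918 to 4595 CPM in control, 2205 to 2504 in hypoplastic and 2651 to 3160 in treated libraries, so the labelled tissue was present in every library. In hypoplastic libraries 1 and 2 the 6 heart muscle genes (Actc1 the highest) summed to 246 and 117 CPM, against 3.06 to 18.03 CPM in the other 7 libraries. The 10 neutrophil genes (S100a8 the highest) summed to 23.6 to 37.1 CPM in control, 69.5 to 111.5 in hypoplastic and 31.7 to 105.2 in treated libraries. The 8 macrophage genes (Csf1r the highest) summed to 33.3 to 136.5 CPM, 98.3 to 309.7 and 83.6 to 263.2. The 6 skeletal muscle genes (Acta1 the highest) summed to 9.25 to 11.2 CPM in control, 13.8 to 17.2 in hypoplastic and 10.5 to 15.1 in treated libraries, so that hypoplastic libraries lay above control for this list as well. The sums of the other lists overlapped between groups, with red cell genes (Hbb the highest) at 3571 to 11917 CPM over the 9 libraries, thymus and T cell genes (Rag1) at 1.20 to 3.16, liver genes (Apoa1) at 0.0327 to 6.15 and lung mesenchymal genes (Col3a1) at 1433 to 11535 CPM, the highest in hypoplastic library 2. By Xist and Y-linked genes, 2 of 3 control lungs and 1 of 3 lungs in each other group were male. In whole lungs, fewer cells of a type and less RNA per cell cannot be told apart.

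Across the 10 genes the receptor itself had the narrowest span over all libraries on the log2 scale, and no gene differed between groups past the threshold. That threshold was an adjusted p under 0.05 by edgeR's quasi-likelihood test, with Benjamini-Hochberg adjustment over the 12966 genes. The lowest unadjusted p-values belonged to Sgk1 and Dusp1, which were lower in treated than in hypoplastic lungs, Hsd11b2, which was higher there, and Zbtb16, which was lower in hypoplastic than in control lungs. In hypoplastic against control lungs 0 of 10 genes were called, where edgeR called 0.00771% of all genes tested. One gene, Zbtb16, had an unadjusted p under 0.05 (1 of 10, against 12.4% of all genes), and the same 1 gene had groups whose libraries did not overlap (against 16.7%). In treated against hypoplastic lungs 0 of 10 were called (0% of all genes), 3 of 10 had an unadjusted p under 0.05 (against 5.56%) and 2 of 10 had groups that did not overlap (against 9.83%). In treated against control lungs 0 of 10 were called (0% of all genes), 0 of 10 had an unadjusted p under 0.05 (against 4.17%) and 0 of 10 had groups that did not overlap (against 9.39%). DESeq2 called 0 of 10 in each comparison, with 2, 3 and 0 genes at an unadjusted p under 0.05 in the same order, where it called 1.61%, 0.107% and 0.108% of the genes for which it gave an adjusted p. The comparisons share libraries, so their values for a gene are given side by side and not as support for each other.

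**Figure D1:**
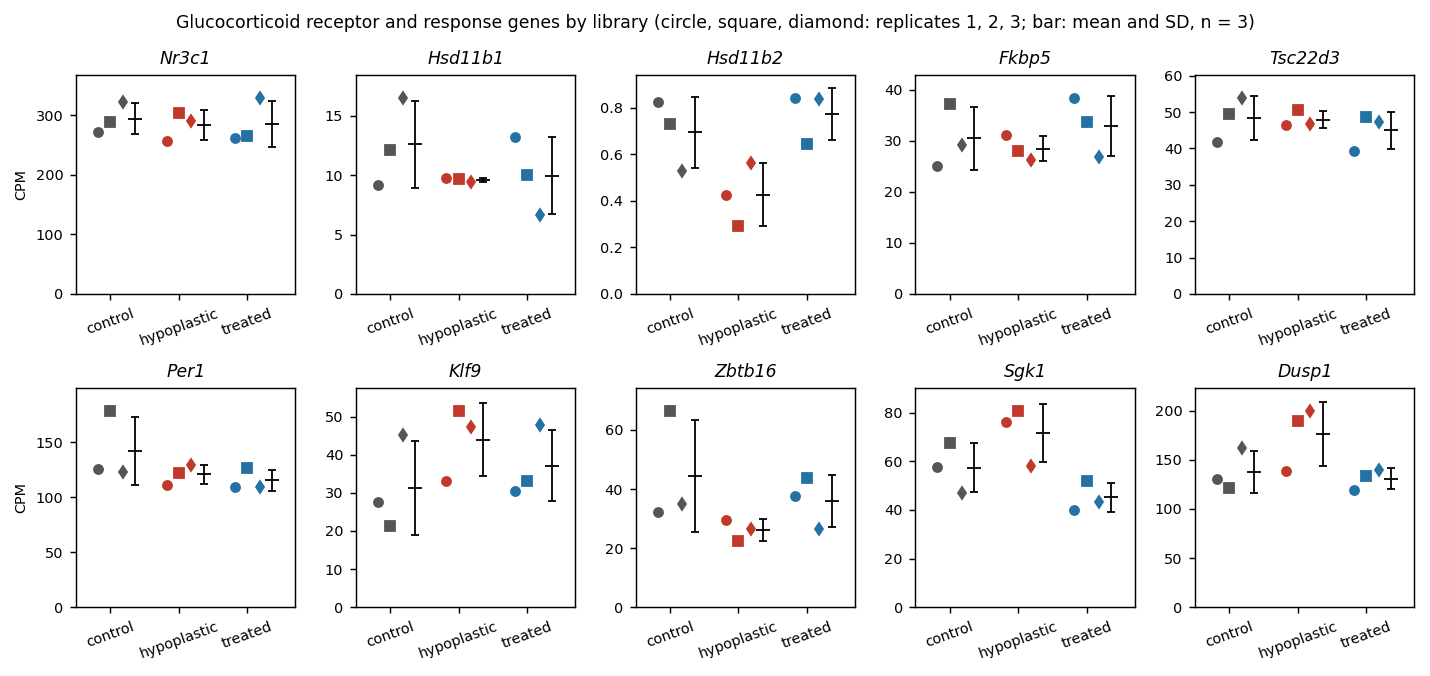
Level in CPM (vertical axes from 0, a scale of its own in each panel) of the 10 genes in the 3 libraries of each group, with the mean and SD beside them. Zbtb16 in hypoplastic lungs lies below every control library, and Sgk1 in treated lungs lies below every hypoplastic library.

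Nr3c1 (Gene ID 24413), the receptor, was at 272, 289 and 323 CPM in control libraries 1 to 3, at 257, 304 and 291 CPM in the hypoplastic libraries and at 262, 266 and 329 CPM in the treated libraries. The 3 groups overlapped over nearly their whole range, and the coefficient of variation inside a group was 8.66 to 13.3%. Its log2 fold change was -0.05 (95% interval -0.36 to 0.25) in hypoplastic against control lungs and 0.01 (-0.30 to 0.31) in treated against hypoplastic lungs. The intervals, taken from the standard error and the 6 residual degrees of freedom, leave room for differences of up to about that size in either direction. Over the 9 libraries Nr3c1 spanned 0.36 on the log2 scale, the narrowest span of the 10 genes.

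Hsd11b1 (Gene ID 25116), whose product regenerates active hormone, was at 9.17, 12.1 and 16.5 CPM in control libraries and at 9.72, 9.64 and 9.41 CPM in hypoplastic libraries. Treated libraries had 13.2, 10.03 and 6.67 CPM. The hypoplastic libraries were nearly equal, with a coefficient of variation of 1.70%, while those of control (29.3%) and treated lungs (32.7%) spread around them. Hypoplastic against control lungs differed by -0.39 on the log2 scale (SE 0.266, edgeR adjusted p 0.566), and without control library 3, the highest, it was -0.15.

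Hsd11b2 (Gene ID 25117), whose product inactivates the hormone and so shields the mineralocorticoid receptor from it, had the fewest counts of the 10 genes, between 18 and 64 per library. Its level was 0.827, 0.731 and 0.529 CPM in control and 0.427, 0.294 and 0.562 CPM in hypoplastic libraries. In treated libraries it was 0.843, 0.646 and 0.837 CPM. Every treated library lay above every hypoplastic library, as for 5.09% of all genes, and control overlapped both groups. Counting error alone gave the highest hypoplastic library an exact Clopper-Pearson 95% interval of 0.381 to 0.796 CPM and the lowest treated library one of 0.485 to 0.842 CPM, so that the gap between them was within it.

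The log2 fold change of Hsd11b2 in treated against hypoplastic lungs was 0.86 (SE 0.342), a mean 1.82-fold higher, with an unadjusted p of 0.0317 and an edgeR adjusted p of 0.895. In hypoplastic against control lungs it was -0.70 (SE 0.354, edgeR adjusted p 0.448). All 6 lung epithelial genes had a log2 fold change below 0 in hypoplastic against control lungs. Of these, 5 had an unadjusted edgeR p under 0.05 (against 5.69% of all genes in that direction). All 6 had one above 0 in treated against hypoplastic lungs, 2 of them with an unadjusted p under 0.05 (against 2%). In treated against control lungs 1 of 6 had one above 0, while Hsd11b2 had 0.16 (SE 0.315). The part of the lung epithelial genes in the values of Hsd11b2 was not tested.

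The balance of the 2 enzymes can be read inside a library, without scaling between libraries, as counts of Hsd11b1 per count of Hsd11b2. This ratio was chosen after the values were seen, and it is not corrected for transcript length. It was 11.1, 16.6 and 31.2 in control, 22.8, 32.8 and 16.8 in hypoplastic and 15.6, 15.5 and 7.97 in treated libraries. The treated libraries lay below the hypoplastic ones and overlapped control. The mean ratio of treated lungs was 0.537 of that of hypoplastic lungs (means on the log2 scale, 2-sided exact permutation p 0.10, the smallest that 3 libraries against 3 can give). The same test gave 0.40 for hypoplastic against control, with a ratio 1.30 times as high, and 0.40 for treated against control. Adjusted over the 3 comparisons, no p was below 0.30.

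**Figure D2:**
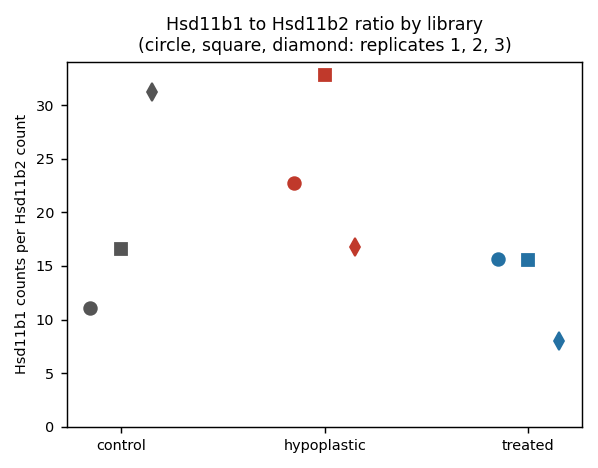
Estimated counts of Hsd11b1 per count of Hsd11b2 (vertical axis from 0) in each library of the 3 groups. The treated libraries, at 7.97 to 15.6, sit below the hypoplastic libraries, at 16.8 to 32.8, while control libraries run from 11.1 to 31.2.

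Of the genes that the receptor is known to raise, Fkbp5, Tsc22d3 and Per1 are among those most often read as a sign of its activity, and none of them separated the groups. Fkbp5 (Gene ID 361810), a co-chaperone that lowers the receptor's affinity for hormone, was at 25.0, 37.2 and 29.1 CPM in control and 31.1, 28.1 and 26.2 CPM in hypoplastic libraries. Treated libraries had 38.4, 33.7 and 26.8 CPM. The highest value was in treated library 1 and the lowest in control library 1, with overlap in every comparison. Its log2 fold change was -0.10 (95% interval -0.53 to 0.33) in hypoplastic against control lungs and 0.21 (-0.22 to 0.64) in treated against hypoplastic lungs, with edgeR adjusted p of 0.854 and 0.940.

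Tsc22d3 (Gene ID 83514), also called Gilz, a leucine zipper protein that dampens inflammatory transcription, was at 41.8, 49.5 and 53.9 CPM in control and 46.3, 50.6 and 46.7 CPM in hypoplastic libraries. Treated libraries had 39.2, 48.6 and 47.3 CPM. The groups overlapped in all 3 comparisons. The log2 fold changes of Tsc22d3 were -0.02 (95% interval -0.32 to 0.29) in hypoplastic against control, -0.09 (-0.39 to 0.22) in treated against hypoplastic and -0.10 (-0.41 to 0.20) in treated against control lungs.

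Per1 (Gene ID 287422), a repressor of the circadian clock that hormone induces quickly, was at 126, 178 and 123 CPM in control and 112, 122.5 and 129 CPM in hypoplastic libraries. Treated libraries had 109.7, 127 and 109.4 CPM. Control library 2 stood alone at the top, and the remaining 8 libraries lay between 109.4 and 129 CPM. The log2 fold change in hypoplastic against control lungs was -0.24 (SE 0.148, edgeR adjusted p 0.534), and without control library 2 it was -0.04. In treated against control lungs it was -0.31 (SE 0.148, edgeR adjusted p 0.998), and without control library 2 it was -0.11.

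Klf9 (Gene ID 117560), a zinc finger transcription factor that responds to both glucocorticoid and thyroid hormone, was at 27.6, 21.4 and 45.1 CPM in control and 33.2, 51.4 and 47.3 CPM in hypoplastic libraries. Treated libraries had 30.4, 33.1 and 47.7 CPM. Each group held low and high libraries. Hypoplastic against control lungs differed by 0.49 on the log2 scale (SE 0.285, edgeR adjusted p 0.509). It was 0.84 without control library 3, with an edgeR adjusted p of 0.361, and 0.27 without control library 2.

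Zbtb16 (Gene ID 353227), also called Plzf, a zinc finger repressor that is among the most inducible receptor targets in many cell types, was at 32.2, 66.3 and 34.8 CPM in control libraries. Hypoplastic libraries had 29.6, 22.2 and 26.5 CPM, and treated libraries 37.5, 43.9 and 26.4 CPM. All 3 hypoplastic libraries lay below all 3 control libraries, as they did for 9.05% of all genes, and the treated libraries overlapped both groups. The means were 44.4 CPM ± 19.0 (SD, n = 3) in control, 26.1 CPM ± 3.71 (SD, n = 3) in hypoplastic and 35.9 CPM ± 8.87 (SD, n = 3) in treated lungs.

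The log2 fold change of Zbtb16 in hypoplastic against control lungs was -0.76 (SE 0.284), with an unadjusted p of 0.0235 and an edgeR adjusted p of 0.359. Without control library 2, which had the highest value, it was -0.36, with an unadjusted p of 0.122. DESeq2 gave the lowest adjusted p over the alternatives, 0.164. Treated against hypoplastic lungs gave 0.46 (SE 0.283, edgeR adjusted p 0.921). Control library 2 was also the library with the highest summed lung epithelial genes (4595 CPM) and the lowest summed lung mesenchymal genes (1433 CPM), and whether that bears on Zbtb16 was not tested.

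Sgk1 (Gene ID 29517), a kinase that keeps epithelial sodium channels at the cell surface, was at 57.8, 67.3 and 47.0 CPM in control libraries. Hypoplastic libraries had 76.0, 80.5 and 58.2 CPM, and treated libraries 40.1, 51.8 and 43.4 CPM. All treated libraries lay below all hypoplastic libraries, as for 4.74% of all genes, and control overlapped both. The means were 57.4 CPM ± 10.2 (SD, n = 3) in control, 71.6 CPM ± 11.8 (SD, n = 3) in hypoplastic and 45.1 CPM ± 6.02 (SD, n = 3) in treated lungs.

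The log2 fold change of Sgk1 in treated against hypoplastic lungs was -0.67 (SE 0.170, 95% interval -1.08 to -0.25), a level 0.631 of that in hypoplastic lungs. Its unadjusted p of 0.00317 was number 40 from the smallest among all genes tested, and its edgeR adjusted p was 0.826. With 1 library left out the log2 fold change ran from -0.79 to -0.57 and the unadjusted p from 0.00126 to 0.0158, while the edgeR adjusted p was 0.150 or higher. DESeq2 gave an adjusted p of 0.145. In hypoplastic against control lungs the log2 fold change was 0.32 (SE 0.170, edgeR adjusted p 0.470), and in treated against control lungs it was -0.35 (SE 0.170, edgeR adjusted p 0.998). The hypoplastic libraries with the most Sgk1, libraries 1 and 2, were the libraries with raised heart muscle genes. Without library 1 the log2 fold change of treated against hypoplastic lungs was -0.62 and without library 2 it was -0.57, and the part of heart tissue was not tested.

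Dusp1 (Gene ID 114856), a phosphatase that switches off stress-activated kinases, was at 130.4, 121 and 162 CPM in control libraries. Hypoplastic libraries had 139, 189.5 and 199 CPM, and treated libraries 119, 133 and 140.1 CPM. Hypoplastic libraries 2 and 3 lay above all others, and hypoplastic library 1 lay inside the control range and just under the highest treated library. Dusp1 had a log2 fold change of 0.35 (SE 0.158) in hypoplastic against control lungs, with an unadjusted p of 0.0524 and an edgeR adjusted p of 0.407. Between treated and hypoplastic lungs it was -0.43 (SE 0.159), with an unadjusted p of 0.0234 and an edgeR adjusted p of 0.895. In treated against control lungs it was -0.08 (SE 0.158).

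**Figure D3:**
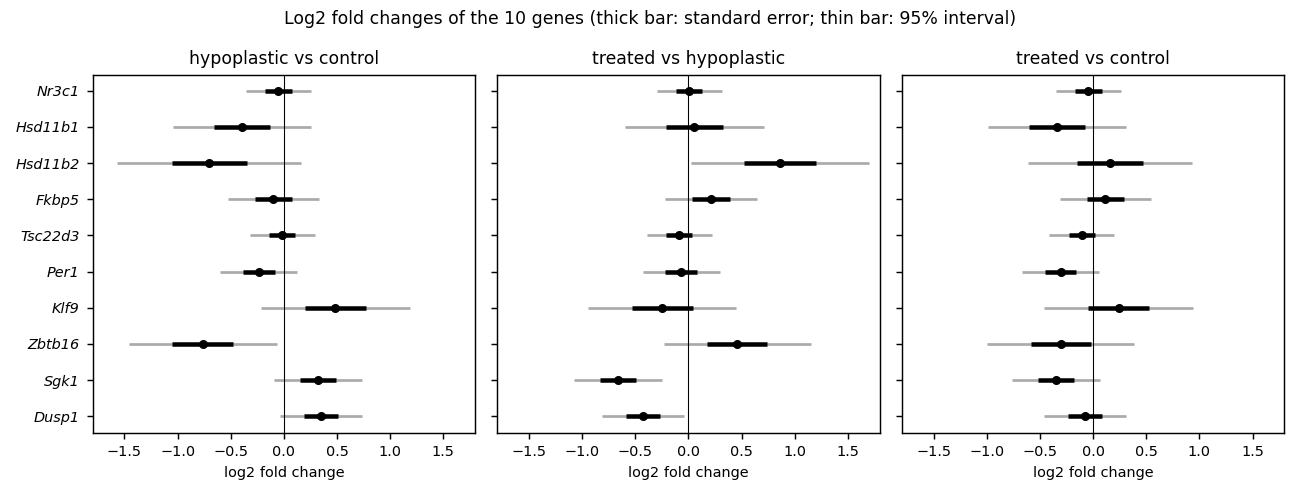
Log2 fold change of the 10 genes (horizontal axis) in the 3 comparisons, each with its standard error (thick bar) and 95% interval (thin bar). The intervals of Zbtb16 in hypoplastic against control and of Sgk1, Dusp1 and Hsd11b2 in treated against hypoplastic lungs leave out 0 before adjustment over all genes, and those of Nr3c1 and Tsc22d3 are centred near 0.

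Promoter sequences, 250 bases before to 50 after each annotated transcription start, were taken from RefSeq (build GRCr8) for 7 of the 10 genes, with 12 starts in all. Zbtb16, Hsd11b1 and Hsd11b2 were not matched. The windows were searched on both strands for the core of the glucocorticoid response element (GNACA, any 3 bases, TGTNC), and its single arm TGTTCT, and for the cAMP response element TGACGTCA and its core TGACG, which overlaps it. The glucocorticoid core was in 0 of 12 starts of these genes and in 0.439% of all 33469 promoter windows, and the single arm in 0 of 12, against 20.7%. That says only that these letters are not in these windows. The whole cAMP element was in 1 of 12 starts, that of Dusp1, against 1.83% of all windows, and its core in 3 of 12, against 21.2%. The stretches with a match are printed 5′ to 3′ on the strand of the gene, with the matches in capitals, to show where in these promoters the letters lie. The stretch of Dusp1 (plus strand) runs from base 184 to base 105 before the start, that of Klf9 (plus strand) from base 91 to base 63, and that of Tsc22d3 (minus strand, the third of 3 starts) from base 87 to base 49.
Dusp1: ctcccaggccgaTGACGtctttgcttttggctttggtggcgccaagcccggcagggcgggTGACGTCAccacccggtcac
Klf9: gggcctggattgTGACGtgatgggattct
Tsc22d3, start 3: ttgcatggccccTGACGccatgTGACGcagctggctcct

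Sgk1, with the lowest p of the 10 genes, has 3 annotated starts, and the counts are per gene, so which of them the transcripts came from was not measured. The last 60 bases before each start hold none of these motifs, and they are shown because the starts differ. The share of G and C in them was 45% at start 1, 51.7% at start 2 and 65% at start 3. The letters TATAAA, in capitals, begin 55 bases before start 1 and 33 bases before start 3 and are absent from the stretch of start 2. Of all 33469 stretches of this length, 2.61% hold them on the strand of the gene, the strand searched. The gene is on the minus strand, and the starts are numbered in the direction of transcription.
Sgk1, start 1: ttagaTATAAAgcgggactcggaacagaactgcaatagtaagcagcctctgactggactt
Sgk1, start 2: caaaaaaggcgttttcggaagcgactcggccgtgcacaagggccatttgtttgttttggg
Sgk1, start 3: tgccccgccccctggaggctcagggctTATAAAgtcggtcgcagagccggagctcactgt

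The immediate-early genes, transcription factors and feedback regulators induced within minutes by stress, growth factors or handling of tissue, were compared because Dusp1 and Per1 respond in the same way. This list, like the others, was chosen with earlier results of these data known, so its shares and those of all genes are descriptions only. All 18 were tested, and edgeR called 0 of 18 in each comparison. In hypoplastic against control lungs all 18 had a log2 fold change above 0, with a median of 0.63 against 0.01 over all genes tested. Of these, 11 had an unadjusted p under 0.05 (against 6.67% of all genes in that direction) and 10 had hypoplastic libraries that all lay above the control libraries (against 7.67%). DESeq2 called 3 of them, Egr1, Fos and Junb, against 1.61% of all genes.

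Egr1, a zinc finger transcription factor, was at 17.2 to 21.3 CPM in control, 32.1 to 58.4 in hypoplastic and 33.1 to 75.6 in treated libraries. Its log2 fold change in hypoplastic against control lungs was 1.37 (SE 0.336, edgeR adjusted p 0.317). Fos and Junb, which form the AP-1 factor, had log2 fold changes of 0.96 (SE 0.241) and 0.85 (SE 0.238), and Zfp36, which destabilises inflammatory mRNAs, one of 0.69 (SE 0.202), with the same edgeR adjusted p of 0.317. In these 4 genes no hypoplastic library overlapped control. The log2 fold change of Dusp1 in that comparison, 0.35, was smaller than theirs, but these 4 were picked by their p there. Over all 18 genes the log2 fold changes ran from 0.07 to 1.63, and that of Dusp1 lay inside this range.

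In treated against hypoplastic lungs all 18 had a log2 fold change below 0, with a median of -0.24 against -0.01 over all genes, and 1 of 18 had an unadjusted p under 0.05 in that direction, against 3.56%. That gene was Klf6, a zinc finger factor of injured tissue, at -0.39 (SE 0.156, edgeR adjusted p 0.895). Junb, Ier3 and Jun followed with -0.45, -0.59 and -0.23. Both comparisons use the hypoplastic libraries, so the opposite signs are not 2 separate results. In treated against control lungs 15 of 18 had a log2 fold change above 0, with a median of 0.24, and 4 of 18 had an unadjusted p under 0.05, all of them higher, against 4.17% of all genes in either direction. Egr1 had 1.34 (SE 0.336) there, with an edgeR adjusted p of 0.998 and a DESeq2 adjusted p of 0.0394, the only DESeq2 call among the 18 (against 0.108% of all genes). Summed over the 18 genes the control libraries had 1821, 1858 and 1998 CPM, the hypoplastic libraries 2404, 2851 and 2700.05 CPM and the treated libraries 1923, 2719.9 and 2026 CPM. Treated library 2 thus lay inside the hypoplastic range and treated libraries 1 and 3 lay near control. Neutrophil and macrophage genes, given above, were also higher in most hypoplastic libraries, and their part in these values was not tested.

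The clock genes were compared because Per1 is one of them. Of the 15 listed, 14 were in the table and tested, and edgeR called 0 of 14 in each comparison. Between hypoplastic and control lungs 11 of 14 had a log2 fold change above 0, with a median of 0.17 against 0.01 over all genes, and 1 gene in each direction had an unadjusted p under 0.05, which is near the share of all genes (6.67% higher and 5.69% lower). These were the heme-binding repressor Nr1d1, at 0.78 (SE 0.315, edgeR adjusted p 0.375), and the activator Tef, at -0.47 (SE 0.160, edgeR adjusted p 0.333). Ciart and Bhlhe40, both clock repressors, were next with 1.06 (SE 0.608) and 0.65 (SE 0.382). Without hypoplastic library 2 the value of Ciart, a gene at 0.178 to 1.57 CPM, was 0.44. Between treated and hypoplastic lungs 0 of 14 had an unadjusted p under 0.05 and the median was -0.12. The lowest p-values belonged to Cry2 (-0.23), Nr1d1 (-0.50), Ciart (-0.73, and -0.12 without hypoplastic library 2) and Per2 (0.17).

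The list of receptor partners holds mainly chaperones that fold the receptor and coregulators that it recruits. It also holds Nr3c2, H6pd, Abcb1a, Crh and Crhr1, which are neither, and of these Nr3c2, H6pd and Abcb1a were tested. Of the whole list, edgeR called 0 of 22 tested genes in each comparison (25 listed, 24 in the table). Between hypoplastic and control lungs 3 had an unadjusted p under 0.05, all higher, against 6.67% of all genes in that direction. All 3 were chaperones. Dnaja1, an HSP70 co-chaperone, was at 52.9 to 65.4 CPM in control and 72.9 to 78.0 CPM in hypoplastic libraries, with a log2 difference of 0.39 (SE 0.109, edgeR adjusted p 0.317). Hsp90aa1, the inducible HSP90, had 0.41 (SE 0.153), and Hspa8, the constitutive HSP70, 0.46 (SE 0.201). Control and hypoplastic libraries did not overlap for any of these, and 7 of the 22 genes had hypoplastic libraries that all lay above control, against 7.67%. The corepressor Ncor1 had -0.19 (SE 0.0934). It was the 1 gene of the 22 whose hypoplastic libraries all lay below control, against 9.05% of all genes.

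Between treated and hypoplastic lungs 3 of 22 partners had an unadjusted p under 0.05, all higher, against 2% of all genes in that direction. None of these was a chaperone. Among them, the corepressor Ncor1 had a log2 fold change of 0.28 (SE 0.0934) and Smarca4, the motor of a chromatin remodelling complex, one of 0.35 (SE 0.130), with edgeR adjusted p of 0.859 and 0.895. The acetyltransferase Crebbp had the smallest p of the remaining partners, at 0.18 (SE 0.138). The median of the 22 was -0.02 in this comparison and 0.08 in hypoplastic against control lungs.

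Other genes that glucocorticoids are known to raise in 1 or more tissues spread widely in both directions. Of 30 listed, 29 were in the table and 28 were tested, and edgeR called 0 of 28 in each comparison. In hypoplastic against control lungs 22 of 28 had a log2 fold change above 0 and 6 below, with a median of 0.41 against 0.01 over all genes. An unadjusted p under 0.05 was reached by 6 higher genes (against 6.67%) and 3 lower genes (against 5.69%). DESeq2 called 5, of which Cdkn1a, Lcn2 and Mt2A were higher and Cebpb and Tfcp2l1 lower, against 1.61% of all genes.

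The 4 genes of lowest p went both ways. Lcn2, an iron-scavenging protein of neutrophils and stressed epithelium, was at 10.5 to 13.8 CPM in control and 21.3 to 131 CPM in hypoplastic libraries, with a log2 fold change of 2.37 (SE 0.569) that was 1.18 without hypoplastic library 2, its highest. Cebpb, a transcription factor of epithelial maturation, was at 181 to 222 CPM in control and 103 to 145 CPM in hypoplastic libraries, with -0.61 (SE 0.147). Scnn1a, the alpha subunit of the epithelial sodium channel whose surface level SGK1 raises, was at 30.2 to 148 CPM in control and 12.2 to 28.3 CPM in hypoplastic libraries, with -2.00 (SE 0.517) that was -1.17 without control library 2. Tfcp2l1, an epithelial transcription factor, had -1.11 (SE 0.286). The edgeR adjusted p of all 4 was 0.317, and control and hypoplastic libraries did not overlap for any of them. These 4 were picked by their p in this same comparison. Of the 28 genes tested, 8 had groups that did not overlap, against 16.7% of all genes. Scnn1a and Tfcp2l1 were lower together with the lung epithelial genes, whose part was not tested. The summed neutrophil genes were higher in hypoplastic than in control libraries too. Hypoplastic library 2, with the most Lcn2, had a neutrophil sum of 69.5 CPM, and the other hypoplastic libraries had 111.5 and 102.6 CPM. Treated libraries had 20.2 to 26.4 CPM of Lcn2 and 31.7 to 105.2 CPM in that sum. The part of neutrophils in the values of Lcn2 was not tested.

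In treated against hypoplastic lungs 20 of 28 had a log2 fold change below 0, with a median of -0.22, and an unadjusted p under 0.05 was reached by 1 higher gene (against 2%) and 2 lower genes (against 3.56%). Cebpb had 0.46 (SE 0.147). Its treated libraries, at 156 to 192 CPM, all lay above the hypoplastic libraries, as for 5.09% of all genes. Lcn2 had -1.47 (SE 0.550), which was -0.28 without hypoplastic library 2, and Anxa1, an anti-inflammatory lipid-binding protein, -0.51 (SE 0.224), and Cdkn1a, a cell cycle inhibitor, followed with -0.51 (SE 0.243). The edgeR adjusted p of these 4 genes lay between 0.859 and 0.901.

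**Figure D4:**
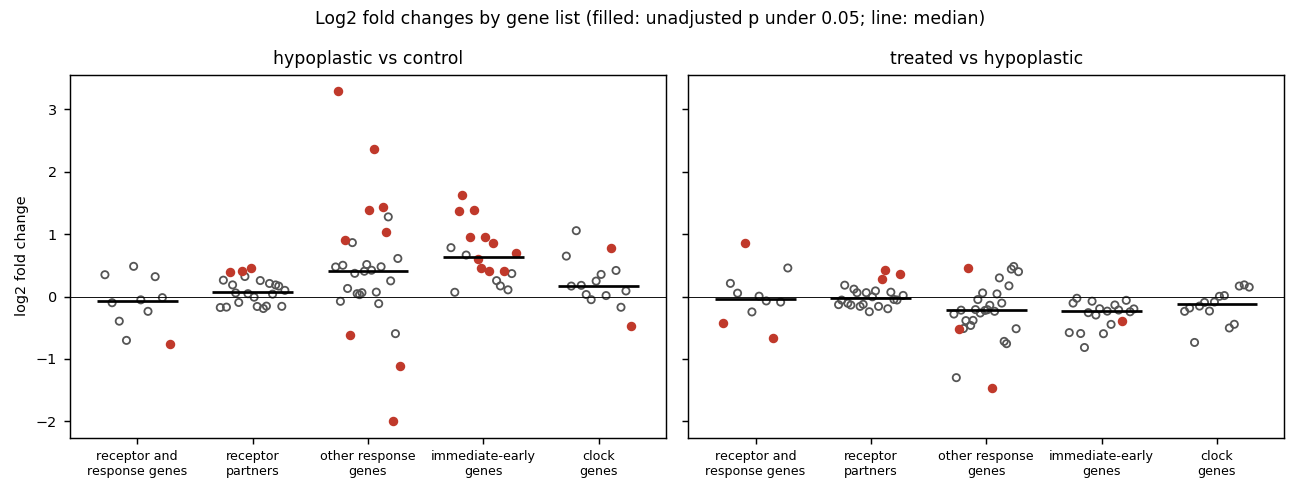
Log2 fold change (vertical axis) of each gene tested in the 10 receptor and response genes and in the lists of receptor partners, other response genes, immediate-early genes and clock genes, for hypoplastic against control and treated against hypoplastic lungs. Filled points have an unadjusted p under 0.05 and lines are medians. All 18 immediate-early genes lie above 0 on the left and below 0 on the right, and the 2 panels share the hypoplastic libraries.

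Of the 10 genes, 5 spanned at least 1 on the log2 scale over the 9 libraries, and for these the genes of most similar profile were sought. Likeness was the mean absolute difference of centred log2 values (log2 of CPM plus 0.1) over the 9 libraries, among named genes that averaged 1 CPM or more. Nearest to Zbtb16 was Lamp3, which encodes a membrane protein of the lamellar bodies of alveolar type II cells, at a mean difference of 0.077. Lamp3 was at 268 to 494 CPM in control, 194 to 229.7 in hypoplastic and 214 to 335 in treated libraries. Its hypoplastic libraries lay below control, as for 9.05% of all genes. It was picked for its likeness to Zbtb16 over these same libraries, so this is not a separate result. Rassf6 followed at 0.12. Nearest to Klf9 were Klf10, a growth factor-induced relative, at 0.061, and Adamts1, a metalloproteinase, at 0.076. Nearest to Sgk1 were Mlf1 at 0.097 and Akap6 at 0.10. Nearest to Hsd11b1 were Commd6 and Zdhhc12, at 0.13 and 0.15, and to Hsd11b2 Zdhhc23 and Cbx2, at 0.18 and 0.19. All libraries and their depths are shared in these comparisons, and the values are descriptions of these 9 libraries.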

How the data were processed

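The authors deposited 1 table of estimated counts per NCBI Gene ID for the 9 libraries, not scaled between libraries. Build rn7 and DESeq2 are named in the submitters' processing notes, without a role. The aligner, counting program and annotation were not given in the sources used here, and 19.5% of the nonzero values were whole as deposited. Symbols came from RefSeq (GRCr8), used for names and promoter sequences only, and 17314 IDs (99.1%) matched.

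Values were rounded and tested with edgeR 4.0.16 in R 4.3.3 (TMM, filterByExpr by group, glmQLFit with legacy=FALSE, glmQLFTest, 1 fit of all 9 libraries with a term per group). Benjamini-Hochberg adjustment ran over 12966 genes, and calls were made under 0.05. The script was tested on simulated data. Standard errors were computed as |log2 fold change| / sqrt(F). Alternatives were RLE factors, DESeq2 1.42.0, no filter, 1 CPM in at least 3 libraries, only the 6 libraries compared, a replicate block, sex as a covariate, and each library left out in turn. That the libraries are separate lungs rests on their labels, so p-values measure the spread between these samples. Intervals of counts cover counting error only.

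Members and lists were chosen with earlier results of these data known. All 10 members were named. From each of the 4 lists the 4 genes of smallest p in hypoplastic against control and in treated against hypoplastic lungs were named. Mt1 and Mt2A, outside this rule, were named after their values were seen. For members spanning at least 1 log2 unit, the 2 nearest genes were named. Lists of red cell, skeletal muscle, thymus, liver and lung mesenchymal genes were also summed. Protein sequences were not used here, and 1 gene that the naming rule picked is not reported here.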

Additional observations from a re-analysis of the deposited data

How the results depend on the processing

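No alternative brought any of the 10 genes past an adjusted p of 0.05: the count stayed at 0 of 10 in each comparison (0 of 9 with the 1 CPM filter, which set aside Hsd11b2), and with 1 library left out it ran from 0 to 0. The lowest adjusted p over 387 alternative values was 0.145, that of Sgk1 by DESeq2. For the 4 lists together, edgeR called 0 genes under all its settings (0 to 0 with 1 library left out). DESeq2 called 8 of 84 between hypoplastic and control lungs, against 1.61% of all genes. It called 0 between treated and hypoplastic lungs (against 0.107%) and 1 (Egr1) between treated and control lungs (against 0.108%). The cause was not tested. With the replicate block edgeR called 0 members and 0 list genes in each comparison. Same-numbered libraries were not shown to be paired (correlations of deviations -0.39 to 0.34, over 0.1 in 3 of 9 pairs). For differently numbered libraries of different groups the correlations were -0.56 to 0.53, over 0.1 in 7 of 18 pairs. The number of members at an unadjusted p under 0.05 was 4, 3 and 2 with the block against 1, 3 and 0 without it. The direction was kept in 370 of the 387 values, and 11 of 30 gene and comparison pairs reversed at least once. Of these 11 pairs the largest in size in the main test was Zbtb16 in treated against control lungs, at -0.31. It was 0.10 without control library 2. Nr3c1 in treated against hypoplastic lungs was -0.0029 with the 1 CPM filter. With 1 library left out the log2 fold change in hypoplastic against control lungs ran from -0.1043 to 0.01912 for Nr3c1, -0.2161 to 0.07036 for Fkbp5 and -0.1067 to 0.06665 for Tsc22d3. In treated against hypoplastic lungs it ran from -0.1068 to 0.06728 for Nr3c1, -0.1438 to 0.003745 for Tsc22d3, -0.1968 to 0.2755 for Hsd11b1 and -0.3421 to 0.3719 for Mt2A. In treated against control lungs it ran from -0.1595 to 0.02733 for Nr3c1, -0.009643 to 0.2838 for Fkbp5, -0.4748 to 0.1003 for Zbtb16, -0.1609 to 0.0572 for Dusp1 and -0.01826 to 0.3248 for Hsd11b2. The log2 ratio of Hsd11b1 to Hsd11b2 in treated against hypoplastic lungs ran from -1.13 to -0.57, an alternative chosen after the data were seen. With the sex covariate Zbtb16 in hypoplastic against control lungs had an unadjusted p of 0.0399 and Sgk1 in treated against hypoplastic lungs one of 0.00571, and Hsd11b1 reached 0.0423 in hypoplastic against control (log2 -0.51, adjusted p 0.605) and 0.0475 in treated against control lungs (-0.51, adjusted p 0.9996). Depth limits Hsd11b2, with 18 to 64 counts per library.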

Other observations

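The metallothioneins Mt1 and Mt2A, small metal-binding proteins that glucocorticoids and metals are known to raise, were singled out after their values were seen, and the comparisons share libraries. Mt2A was at 1.44 to 3.03 CPM in control, 3.77 to 9.12 CPM in hypoplastic and 3.75 to 6.39 CPM in treated libraries, so both hypoplastic groups lay above control. Its log2 fold change was 1.44 (SE 0.395, edgeR adjusted p 0.317, DESeq2 adjusted p 0.0257) between hypoplastic and control lungs and 1.34 (SE 0.393, edgeR adjusted p 0.998) between treated and control lungs, and -0.10 (SE 0.372) between treated and hypoplastic lungs. Mt1 was at 17.0 to 36.5 CPM in control, 37.1 to 37.9 CPM in hypoplastic and 40.2 to 53.5 CPM in treated libraries. Its groups did not overlap in any of the 3 comparisons, though control reached 36.5 CPM and hypoplastic libraries began at 37.1 CPM. Of all genes, 7.67% had hypoplastic libraries that all lay above control. Between treated and control lungs 9.39% did not overlap, in either direction, and 5.09% had treated libraries above hypoplastic ones. In the same order of comparisons the log2 fold changes of Mt1 were 0.48 (SE 0.233, edgeR adjusted p 0.434), 0.78 (SE 0.233, edgeR adjusted p 0.998) and 0.30 (SE 0.232, edgeR adjusted p 0.940). The 2 genes are close in sequence, and how reads that match both were counted is not given in the sources used here.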
